A study of Mus musculus with 6 samples.

Results

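The 10 genes described here belong to the bone morphogenetic protein (BMP) pathway of the embryonic mouse heart. They are 4 BMP ligands (*Bmp2*, *Bmp4*, *Bmp6* and *Bmp10*), the type II receptor *Bmpr2*, and 5 genes known as direct targets of the pathway (*Smad6*, *Smad7*, *Id1*, *Id2* and *Id3*). They were picked by symbol, with earlier results of these data known, from the 13809 genes of an RNA-seq count table of heart tissue. All 10 were in the table and all 10 passed the filter on low counts, with between 41 and 5937 counts in every library.

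The libraries came from hearts at embryonic day 18.5, 3 from wild-type (WT) embryos and 3 from *Pkm1*-knockout (KO) embryos. The labels give the tissue as heart, and the study describes it as ventricular. KO embryos are homozygous for a CRISPR/Cas9 deletion in the exon that only the *Pkm1* transcript of *Pkm* uses, which brings in a premature stop codon. *Pkm1* encodes the muscle form of pyruvate kinase, the last enzyme of glycolysis, and KO pups die soon after birth. The mutation is in the germline and so in every cell type of the heart.

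BMPs are secreted ligands that bring together type I and type II receptor kinases on the cell surface. The type I receptor phosphorylates Smad1, Smad5 or Smad9, which enter the nucleus with Smad4 and switch on target genes. Among these targets are the Id genes, whose products bind E proteins and keep them off DNA, and the inhibitory Smads, which feed back on the receptors. In the developing ventricle BMP10 comes from the trabeculae, the inner muscle ridges, and promotes cardiomyocyte growth, while BMP2 and BMP4 act earlier in the cushions and the outflow tract.

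Each library held between 15567624 and 19875546 counts, with WT (15597756 to 19875546) and KO (15567624 to 18577404) covering much the same range. Expression is given as CPM, the count of a gene scaled to the size of its library, and 3 counts came to 0.151 to 0.193 CPM. *Pkm*, counted over both of its isoforms, fell from 1318 ± 41.1 to 542 ± 10.1 CPM (SD, n = 3 per group here and throughout). Defining markers of ventricular cardiomyocytes were abundant, at a summed 133167 to 137261 CPM in WT and 127296 to 128545 CPM in KO. More than any other marker, *Ttn* made up this sum (78884 ± 310 against 76438 ± 255 CPM). By the test given below, 6 of the 8 markers were lower in KO, among them *Myh6* (13979 ± 487 against 10191 ± 173 CPM), and 2 were higher. With DESeq2 the calls of *Tnni3* (0.0575), *Ttn* (0.198), *Actc1* (0.109) and *Myh7* (0.251) were not kept. In addition, all 20 immediate early genes examined were lower in KO, among them *Fos* (49.6 ± 0.789 against 3.09 ± 0.961 CPM). All 3 WT libraries carried Y-linked transcripts and no KO library did, so embryo sex and genotype cannot be told apart in any comparison here. In these bulk samples, moreover, fewer cells of a type and less RNA per cell cannot be told apart.

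Of the 10 genes, *Smad6*, *Smad7* and *Bmp6* were higher in KO hearts, *Id1* was lower, and 6 did not pass the test (quasi-likelihood F test of edgeR, Benjamini-Hochberg adjusted over 13804 genes, threshold 0.05). Across all genes tested, 30.3% passed, 14.6% higher and 15.7% lower in KO. The same 4 genes were those whose WT and KO libraries did not overlap, a state reached by 42.4% of all genes (21.0% with KO above and 21.4% with KO below). The median log2 fold change of the 10 genes was 0.00, as was that of all genes. The share of the 10 genes that passed, 4 of 10, was near this background, and each gene is described in turn. Counts of called genes in the other gene lists have the same background.

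**Figure D1:**
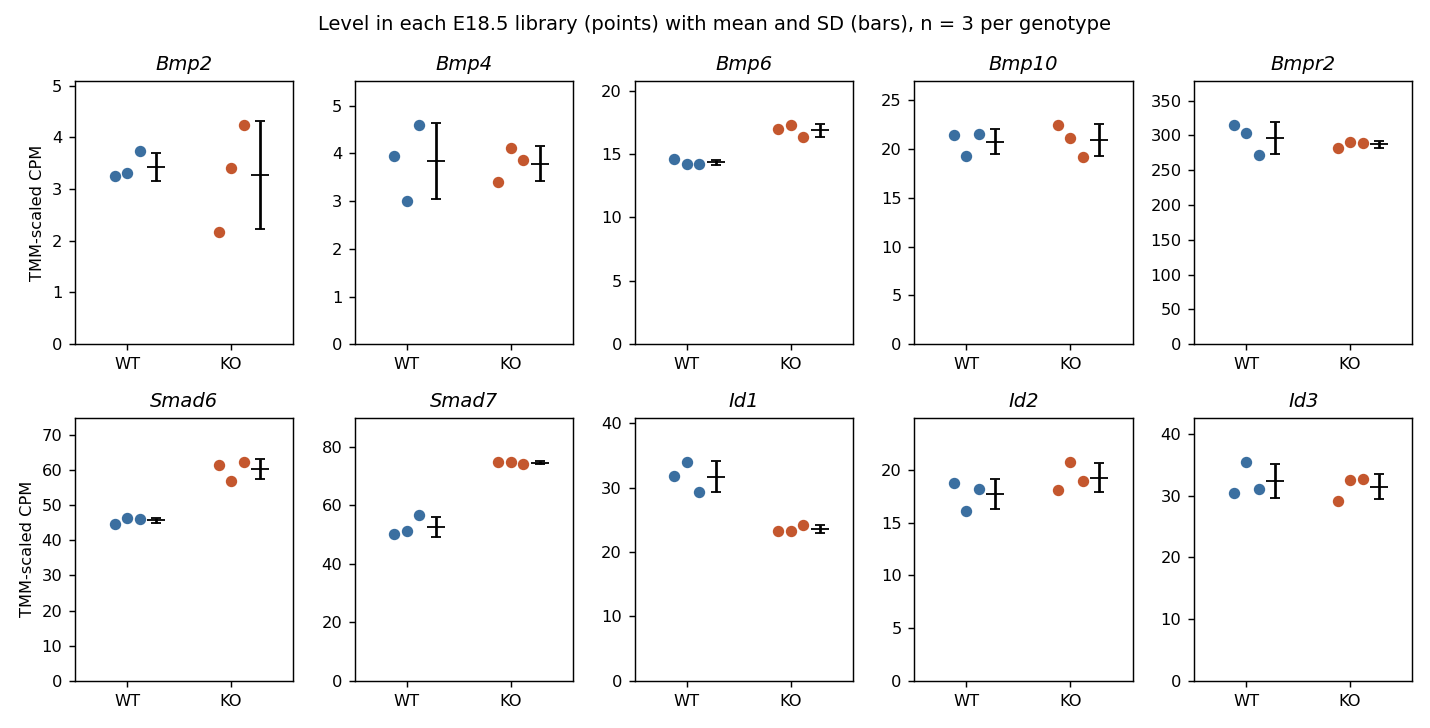
Expression of the 10 BMP pathway genes in CPM (linear axes starting at 0) in 3 WT and 3 KO libraries, 1 point per library with a bar at the group mean. The points of *Bmp6*, *Smad6* and *Smad7* in KO lie above those in WT, those of *Id1* lie below, and the points of the other 6 genes overlap.

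**Figure D2:**
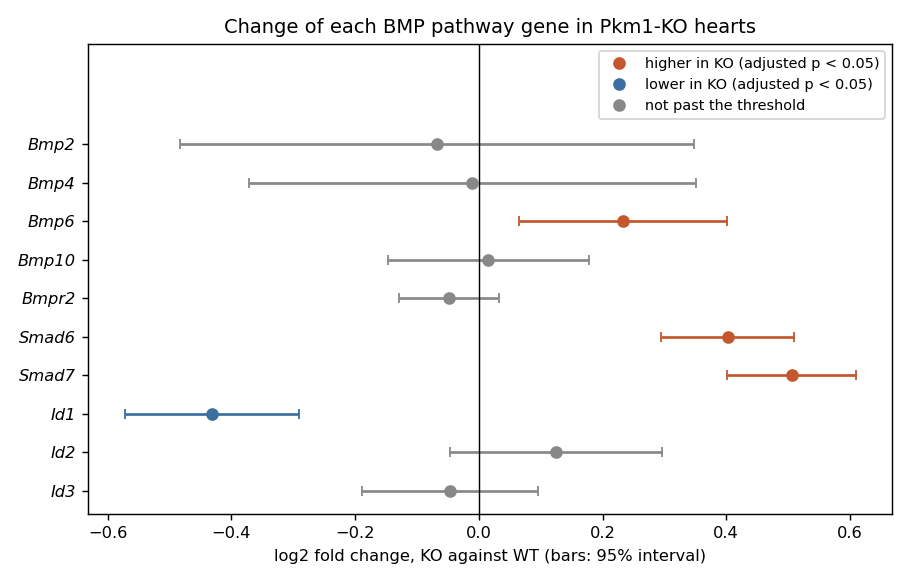
Log2 fold change of each gene in KO against WT (linear axis in log2 units) with its 95% interval, coloured by the edgeR call. The intervals of *Smad6* (0.29 to 0.51) and *Smad7* (0.40 to 0.61) lie above 0, that of *Id1* (-0.57 to -0.29) lies below 0, and those of *Bmp2* and *Bmp4* are the widest.

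Relative to exon length, the ligands were the least abundant of the genes. *Bmp6*, on chromosome 13 (GRCm38 chr13:38345107-38500302, plus strand), measured 14.6, 14.2 and 14.3 CPM in WT and 17.0, 17.3 and 16.3 CPM in KO. Every KO library was thus above every WT library, and the lowest KO value was 1.12 times the highest WT value. The rise was 1.18-fold (log2 fold change 0.23, SE 0.0817, adjusted p = 0.0314). The call was not kept with DESeq2, where the adjusted p was 0.109, nor without WT a (0.0542), WT b (0.0918), KO a (0.0859) or KO b (0.0945), although the log2 fold change stayed between 0.22 and 0.26. An exon of *Bmp6* overlaps *Txndc5*, a gene for a protein disulfide isomerase, on the opposite strand, and it is not stated whether the counting used strand. *Txndc5* itself measured 94.0 ± 1.91 CPM in WT and 94.5 ± 3.44 CPM in KO (adjusted p = 0.920). The *Bmp6* to *Txndc5* count ratio was 0.148 to 0.156 in WT and 0.177 to 0.180 in KO (two-sided exact permutation p = 0.1, the smallest that 3 against 3 allows). This ratio uses the *Bmp6* counts tested above and is not a separate result.

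*Bmp10*, the trabecular ligand (chr6:87428994-87437677, plus strand), measured 21.4, 19.2 and 21.5 CPM in WT and 22.5, 21.1 and 19.2 CPM in KO. The groups overlapped over almost their whole range. The log2 fold change was 0.02 with a 95% interval of -0.15 to 0.18 (adjusted p = 0.904), which leaves room for changes of that size in either direction. *Bmp10* is also an atrial gene later in life. Of 5 atrial markers tested, *Myl4* (142 ± 6.03 against 305 ± 9.58 CPM) and *Myl7* (46.3 ± 3.86 against 77.7 ± 2.80 CPM) were higher in KO. *Nr2f1* (adjusted p = 0.510), *Nr2f2* (adjusted p = 0.536) and *Stard10* (adjusted p = 0.626) did not pass the test. The summed level of the list, most of it *Myl4* and *Myl7*, was 218 to 234 CPM in WT and 408 to 431 CPM in KO. The part of atrial tissue in any of these values was not tested.

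*Bmp2* (chr2:133552159-133562885, plus strand) and *Bmp4* (chr14:46383520-46390669, minus strand) had the fewest counts of the 10 and the widest intervals. *Bmp2* measured 3.24, 3.32 and 3.74 CPM in WT and 2.17, 3.41 and 4.24 CPM in KO. Its KO libraries spread on both sides of the WT libraries (log2 fold change -0.07, 95% interval -0.48 to 0.35, adjusted p = 0.835). *Bmp4* measured 3.94, 3.01 and 4.60 CPM in WT and 3.39, 4.10 and 3.86 CPM in KO. All 3 KO values lay within the WT range (log2 fold change -0.01, 95% interval -0.37 to 0.35, adjusted p = 0.971). An exon of *Bmp4* overlaps the gene *Gm15217* on the opposite strand.

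Of 3 other BMP-type ligands in the table, *Bmp7*, which can pair with BMP2 or BMP4 in a heterodimer, passed the test. It measured 74.9, 73.9 and 74.0 CPM in WT and 93.4, 101 and 91.1 CPM in KO. All KO libraries were above all WT libraries (log2 fold change 0.36, SE 0.0454, adjusted p = 9.29e-07). *Bmp5* (adjusted p = 0.616) and *Gdf6* (adjusted p = 0.0992) did not pass the test.

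The receptor *Bmpr2* binds ligand and activates its type I partner (chr1:59763400-59879014, plus strand). It measured 315, 303 and 271 CPM in WT and 281, 291 and 289 CPM in KO. The KO libraries lay inside the wider WT range, whose lowest value came from WT c (log2 fold change -0.05, SE 0.0392, adjusted p = 0.385). Without WT c the log2 fold change was -0.11 and passed the test (adjusted p = 0.00131). Of 10 other receptors and co-receptors tested, 1 was higher and 2 were lower. The type I receptors *Bmpr1a* (186 ± 5.89 against 192 ± 3.11 CPM, adjusted p = 0.299) and *Acvr1* (46.7 ± 2.06 against 49.2 ± 2.46 CPM, adjusted p = 0.342) did not pass, nor did *Eng*, the endothelial co-receptor endoglin (adjusted p = 0.841). The 2 lower genes were both of the repulsive guidance molecule family of BMP co-receptors. *Rgma* fell from 15.9 ± 1.33 to 9.65 ± 1.02 CPM (log2 fold change -0.72, adjusted p = 3.86e-06). Hemojuvelin, listed under its older symbol *Hfe2*, fell from 33.5 ± 4.27 to 25.6 ± 0.671 CPM (log2 fold change -0.38, adjusted p = 3.12e-04). *Rgmb*, of the same family, did not pass (19.8 ± 1.16 against 19.0 ± 1.92 CPM, adjusted p = 0.645), nor did the type II receptor *Acvr2b* (6.24 ± 0.267 against 7.28 ± 0.280 CPM, adjusted p = 0.163). *Neo1*, the receptor that binds this family, rose slightly (183 ± 3.17 against 198 ± 5.46 CPM, adjusted p = 0.0196), a call not kept without KO b (0.0977) or KO c (0.0835).

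The inhibitory Smads were the genes that rose most. *Smad7*, which draws ubiquitin ligases to BMP and TGF-beta receptors, lies on chromosome 18 (chr18:75367529-75395935, plus strand). It measured 50.3, 51.2 and 56.6 CPM in WT and 75.0, 74.8 and 74.2 CPM in KO. The KO libraries were tightly grouped, and the lowest was 1.31 times the highest WT library. The log2 fold change was 0.51 (SE 0.0506, adjusted p = 1.37e-08), a rise of 42.0%, and by p-value the gene ranked 224 of 13804.

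*Smad6*, the inhibitor more selective for the BMP branch (chr9:63953076-64022059, minus strand), measured 44.7, 46.3 and 45.9 CPM in WT and 61.5, 56.9 and 62.4 CPM in KO. Again every KO library was above every WT library, here by at least 1.23 times. The log2 fold change was 0.40 (SE 0.0526, adjusted p = 1.38e-06), a rise of 32.1%. The ratio of *Smad6* to *Smad7* counts within a library was 0.811 to 0.904 in WT and 0.760 to 0.841 in KO. These ranges overlapped, and the difference in the ratio was not resolved (two-sided exact permutation p = 0.3).

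*Smad6* and *Smad7* are also prominent in endothelium. Of 8 endothelial markers 2 were higher and 3 lower, with a summed level of 1163 to 1169 CPM in WT and 1130 to 1150 CPM in KO. *Egfl7* rose (78.7 ± 1.15 against 115 ± 4.52 CPM), while *Cdh5* (344 ± 7.32 against 295 ± 7.05 CPM) and *Pecam1* (203 ± 2.78 against 184 ± 2.51 CPM) fell. The call of *Cldn5*, the other gene called higher, was not kept with DESeq2 (0.117) or without WT a (0.134), WT b (0.175), KO a (0.0864), KO b (0.0570) or KO c (0.144). That of *Tie1*, the remaining lower gene, was not kept with DESeq2 (0.0770) or without WT b (0.0818), KO a (0.128) or KO b (0.0869). The part of endothelial cells in the rise of the inhibitory Smads was not tested.

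The transducers themselves moved in both directions. *Smad1* measured 36.1, 36.2 and 36.1 CPM in WT and 26.5, 26.8 and 26.0 CPM in KO. It was lower in every KO library (log2 fold change -0.45, SE 0.0603, adjusted p = 1.90e-06). *Smad5* rose from 99.5 ± 7.65 to 113 ± 1.22 CPM (log2 fold change 0.18, adjusted p = 0.00425). *Smad9* rose from 3.72 ± 0.967 to 6.33 ± 0.631 CPM (log2 fold change 0.75, adjusted p = 9.42e-04). The shared partner *Smad4* did not pass the test (92.7 ± 2.45 against 94.1 ± 2.41 CPM, adjusted p = 0.735).

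Of 6 intracellular regulators of Smads, 4 were lower in KO, where 15.7% of all genes tested were lower. They were *Tob1*, an inhibitor of BMP Smads (91.4 ± 3.02 against 76.0 ± 0.875 CPM), *Ppm1a*, a Smad phosphatase (96.8 ± 0.831 against 85.0 ± 1.97 CPM), and the co-repressors *Ski* (171 ± 4.49 against 152 ± 3.78 CPM) and *Skil* (66.5 ± 2.41 against 60.0 ± 1.63 CPM). In each of the 4 genes all KO libraries lay below all WT libraries, as they did in 21.4% of all genes tested. Their log2 fold changes ran from -0.26 in *Tob1* to -0.15 in *Skil*. The call of *Skil* was not kept with DESeq2 (0.0569) or without WT a (0.0647), WT b (0.0858) or KO c (0.103). The ubiquitin ligases *Smurf1* (adjusted p = 0.129) and *Smurf2* (adjusted p = 0.622), which work with the inhibitory Smads, did not pass.

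The 3 Id genes did not move together. *Id1* (chr2:152736251-152737410, plus strand) measured 31.7, 34.0 and 29.3 CPM in WT and 23.2, 23.2 and 24.3 CPM in KO. Every KO library was below every WT library, and the lowest WT value was 1.21 times the highest KO value. The log2 fold change was -0.43 (SE 0.0685, adjusted p = 2.32e-05), a change of -25.8%, and by p-value the gene ranked 699 of 13804.

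*Id3* (chr4:136143497-136145755, plus strand), which often stands in for *Id1* in endothelium and endocardium, measured 30.5, 35.5 and 31.1 CPM in WT and 29.1, 32.6 and 32.7 CPM in KO. The groups overlapped (log2 fold change -0.05, 95% interval -0.19 to 0.10, adjusted p = 0.649). *Id2* (chr12:25093799-25097140, minus strand) measured 18.8, 16.1 and 18.2 CPM in WT and 18.1, 20.8 and 18.9 CPM in KO. Its groups overlapped as well (log2 fold change 0.12, 95% interval -0.05 to 0.30, adjusted p = 0.273).

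*Id1* was also set against *Id2* and *Id3* inside each library, where no scaling enters. There were 1.04, 0.958 and 0.941 counts of *Id1* per count of *Id3* in WT and 0.798, 0.713 and 0.741 in KO. For *Id1* over *Id2* the ratios were 1.69, 2.12 and 1.61 in WT and 1.28, 1.12 and 1.28 in KO. Neither ratio overlapped between the groups (two-sided exact permutation p = 0.1 for each, the smallest that 3 against 3 allows). Both ratios use the *Id1* counts tested above and are not a separate result. *Id4*, the remaining member of the family, fell from 2.76 ± 0.579 to 1.33 ± 0.375 CPM (log2 fold change -1.05, adjusted p = 0.00224). *Id1* is among the genes that respond quickly to serum and growth factors. The immediate early genes were lower as well, at a summed 2685 to 2904 CPM in WT and 599 to 608 CPM in KO. *Ctgf* alone gave 1228 ± 64.1 CPM of this sum in WT and 125 ± 3.08 CPM in KO. Their log2 fold changes ran from -4.02 in *Fos* to -0.58 in *Klf2*, against -0.43 in *Id1*. The part of these genes in the result was not tested. The endocardial markers *Npr3* (adjusted p = 0.0554), *Nfatc1* (adjusted p = 0.149) and *Plvap* (adjusted p = 0.369) did not pass the test, and their sum was 156 to 161 CPM in WT and 161 to 164 CPM in KO.

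Other target genes were split. *Hey2*, a transcriptional repressor expressed in the compact ventricular wall, rose from 84.7 ± 4.32 to 107 ± 2.26 CPM (adjusted p = 1.60e-06), while its relative *Hey1* fell from 21.0 ± 1.95 to 13.7 ± 0.222 CPM (adjusted p = 3.25e-06). *Tbx20*, a T-box factor of the ventricle, fell from a mean of 755 to 683 CPM (log2 fold change -0.14, SE 0.0255, adjusted p = 9.38e-05). *Tbx2* (adjusted p = 0.0568), *Bambi*, a decoy receptor (adjusted p = 0.0719), and *Atoh8* (adjusted p = 0.977) did not pass. Of the 3 E proteins that Id proteins bind, *Tcf4* fell from 254 ± 6.12 to 230 ± 7.63 CPM (adjusted p = 0.00172), and *Tcf3* and *Tcf12* did not pass.

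Of 9 extracellular modulators tested, *Fstl1*, a secreted glycoprotein that binds BMPs, was the 1 that passed (461 ± 12.2 against 432 ± 7.30 CPM, adjusted p = 0.0147), and not without WT a (0.0752), KO a (0.0757) or KO c (0.0662). The BMP antagonists *Sost* (3.41 ± 0.388 against 4.58 ± 0.982 CPM, adjusted p = 0.0554), *Chrdl1* (1.11 ± 0.319 against 1.75 ± 0.120 CPM, adjusted p = 0.0666) and *Nbl1* (6.32 ± 0.375 against 7.57 ± 0.589 CPM, adjusted p = 0.117) did not pass. In this list 1 gene was called higher without WT a, WT c or KO b, and 2 were with the exact test of edgeR. Over the 8 lists of pathway genes outside the 10, TGF-beta and activin genes included, 52 genes were tested, of which 6 were higher and 17 lower. That is 44.2% called, against 30.3% of all genes (14.6% higher and 15.7% lower), with a median log2 fold change of -0.00482. Because the lists were chosen with earlier results of these data known, these shares cannot show that the pathway stands out.

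**Figure D3:**
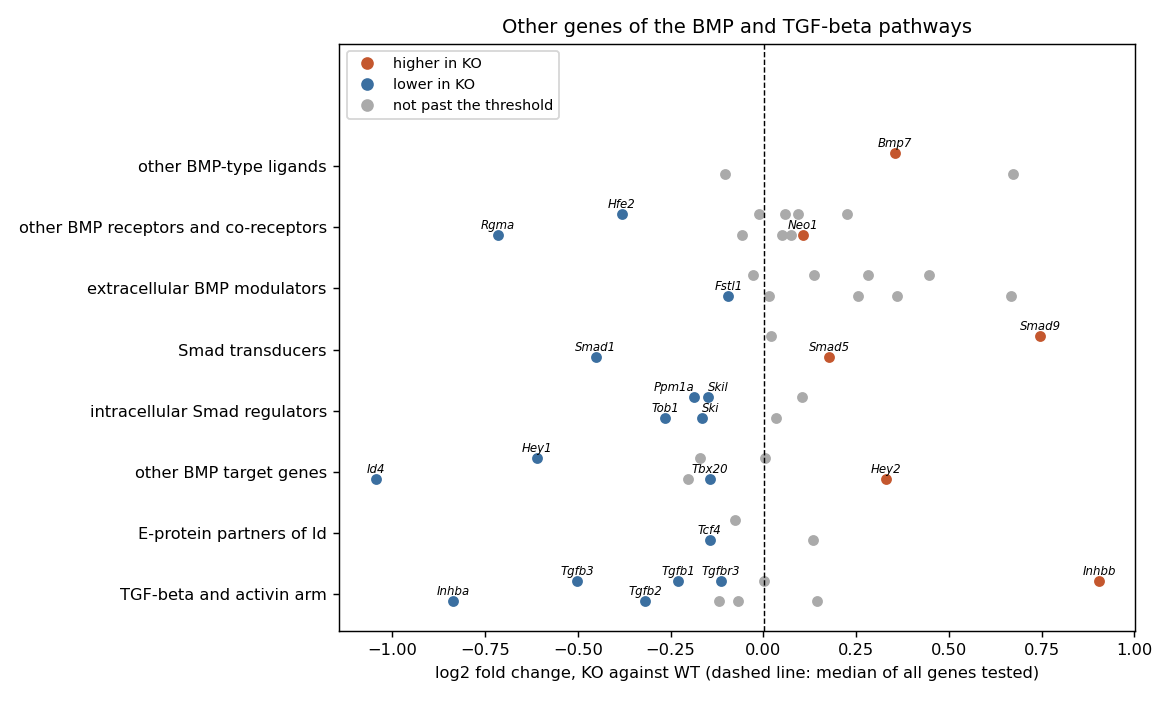
Log2 fold changes in KO against WT (linear axis in log2 units) of 52 other genes of the BMP and TGF-beta pathways, 1 point per gene in 8 rows by role, coloured by the edgeR call, with called genes named. Called genes lie on both sides of 0, 6 above and 17 below.

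Levels between genes were compared per kilobase of exon (CPM per kilobase, RPKM). In WT the order from the lowest was *Bmp2* (0.966), *Bmp4* (1.71), *Bmp6* (3.68), *Bmp10* (4.62), *Id2* (7.25), *Smad7* (11.7), *Smad6* (14.2), *Bmpr2* (16.5), *Id3* (18.1) and *Id1* (27.3). Only *Bmpr2* and *Id3* overlapped among neighbours in that order. In KO, *Id1* was still the highest at 20.3 RPKM, but *Smad6* (18.8) now came next. The libraries of *Smad7* overlapped those of *Id3*, those of *Id3* overlapped those of *Smad6*, and those of *Bmp6* (4.33) overlapped those of *Bmp10* (4.66). In WT, *Id1* thus stood at 27.3 RPKM and *Smad7* at 11.7, and in KO at 20.3 and 16.5. On the same scale *Bmp7* stood at 18.5 RPKM in WT and 23.7 in KO, above the 4 ligands in both groups.

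**Figure D4:**
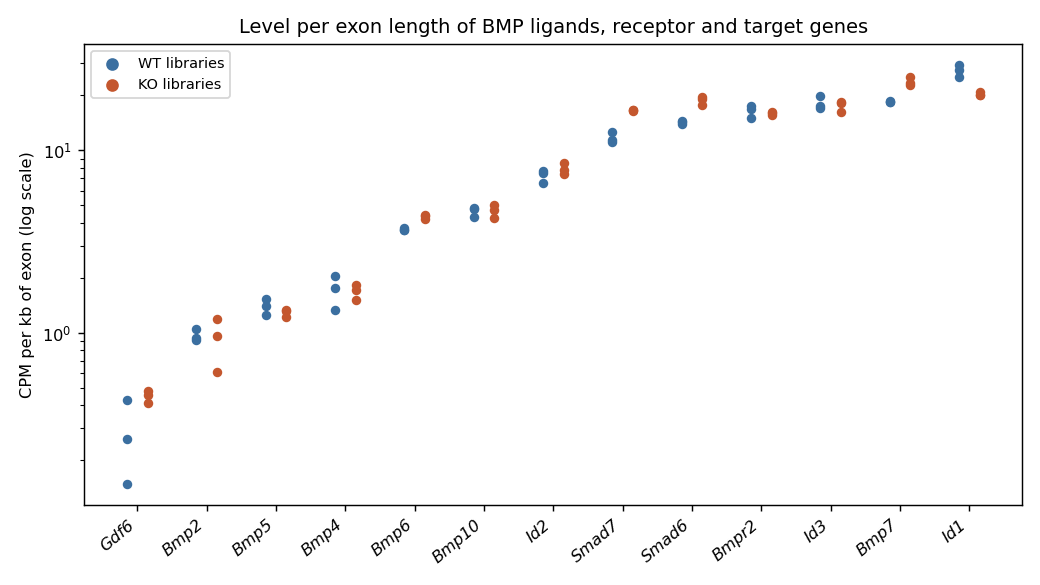
Level of the 10 genes and of the ligands *Gdf6*, *Bmp5* and *Bmp7* as CPM per kilobase of exon (RPKM, logarithmic axis), 1 point per library, with genes ordered from left to right by level. Among the 10 genes the 4 ligands lie lowest, from 0.966 RPKM for *Bmp2* in WT, and *Id1* lies highest in both groups, while *Bmp7* in KO (23.7) lies above *Id1* in KO (20.3).

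Promoter sequences were read for the genes with an entry in RefSeq's table (GRCm38.p6), 7 of the 10, from 250 bases before to 10 bases after the start of transcription. *Bmp2*, *Id1* and *Smad7* had no entry, so the only gene called lower and the gene that rose most could not be read. The start sites are those of this table, and the windows of *Bmp6*, *Bmpr2*, *Id2* and *Id3* lie inside the GENCODE gene spans given above. *Smad6* and *Bmp6* are shown as genes that rose, and *Id2* and *Id3* as the Id genes whose libraries overlapped. The windows are chr9:64022050-64022309 (minus strand) for *Smad6*, chr13:38345466-38345725 (plus strand) for *Bmp6*, chr12:25096083-25096342 (minus strand) for *Id2* and chr4:136143572-136143831 (plus strand) for *Id3*. Each runs 5′ to 3′ on the gene's strand, and capitals mark matches on either strand to GGCGCC, the core of BMP response elements, to CAGAC, a Smad box, to CCAAT, the core bound by NFY, or to GTCTAGAC, a Smad palindrome that was added to the search after the sequences were seen.
Smad6: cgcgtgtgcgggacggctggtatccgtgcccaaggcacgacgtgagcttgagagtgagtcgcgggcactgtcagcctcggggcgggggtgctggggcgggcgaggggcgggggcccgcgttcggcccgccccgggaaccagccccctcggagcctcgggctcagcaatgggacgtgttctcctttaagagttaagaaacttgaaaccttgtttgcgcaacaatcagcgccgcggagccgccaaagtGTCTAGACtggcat
Bmp6: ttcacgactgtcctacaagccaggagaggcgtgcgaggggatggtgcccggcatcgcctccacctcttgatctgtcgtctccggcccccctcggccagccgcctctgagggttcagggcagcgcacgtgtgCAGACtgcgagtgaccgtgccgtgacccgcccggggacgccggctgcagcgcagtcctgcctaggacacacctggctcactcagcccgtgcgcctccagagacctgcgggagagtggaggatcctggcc
Id2: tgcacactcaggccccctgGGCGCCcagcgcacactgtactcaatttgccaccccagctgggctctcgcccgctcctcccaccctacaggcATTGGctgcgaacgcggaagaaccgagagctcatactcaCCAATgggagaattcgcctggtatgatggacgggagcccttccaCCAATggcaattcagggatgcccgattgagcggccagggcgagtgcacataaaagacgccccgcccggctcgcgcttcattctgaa
Id3: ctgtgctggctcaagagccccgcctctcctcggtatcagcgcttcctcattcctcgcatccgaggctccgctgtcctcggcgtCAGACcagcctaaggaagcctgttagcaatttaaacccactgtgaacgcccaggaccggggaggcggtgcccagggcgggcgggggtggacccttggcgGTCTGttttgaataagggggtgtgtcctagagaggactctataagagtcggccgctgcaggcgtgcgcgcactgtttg

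The *Smad6* window held GTCTAGAC across the start site, with its first base at -4 (the base before the start being -1), and no other match. This palindrome contains no CAGAC, and it was found in 24 of 13154 promoter windows of the same length (0.182%). Because the palindrome was chosen after the windows were read, that share cannot measure how unusual the match is. *Bmp6*, which rose, held 1 CAGAC at -119, and *Id3*, which did not pass the test, held CAGAC at -167 and its complement GTCTG at -68. CAGAC was found in 42.3% of all windows. *Id2* held GGCGCC at -231, in a class of 17.1% of windows, and CCAAT or its complement ATTGG at -159, -120 and -76, in a class of 35.3%. CAGAC was thus present both in a gene that rose and in one whose libraries overlapped. Among the windows not shown, *Bmp10* held CCAAT at -181, *Bmpr2* held GGCGCC at -105, and *Bmp4* held none of the 4. A match describes the letters of the window and shows no binding.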

How the data were processed

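RNA-seq was made from 3 WT and 3 KO hearts at E18.5. Ribosomal RNA was removed with the KAPA RiboErase kit. The submitters' processing notes name cutadapt 1.18, HISAT2, StringTie and mm10, and the counting program is not given in the sources used here. For every library, the authors deposited a column of unnormalised read counts by gene symbol. Further columns hold their own edgeR comparison of the genotypes (fold changes, mean expression, p-values and adjusted p-values) and were not used. A column name shows the genotype alone, so the libraries bear letters (WT a, b, c; KO a, b, c) in column order. The study describes them as biological replicates, and the sample labels do not say whether a library is 1 embryo or a pool. Spread between pairs of libraries was measured as a chi-square per gene against counting noise. It was 1.55 between WT a and WT b, but 3.76 between WT a and WT c and 3.24 between WT b and WT c. Between KO libraries it was 1.62 to 1.88, and across genotypes 15.5 to 18.7. Whether the SDs and p-values cover the variation between embryos was not tested.

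Counts were filtered with filterByExpr (13804 of 13809 genes kept), scaled with TMM and tested with the quasi-likelihood F test of edgeR 4.0.16 in R 4.3.3, with genotype as the only term, 2-sided, with Benjamini-Hochberg adjustment over all genes and a threshold of 0.05. CPM values use TMM-scaled library sizes. Exon lengths and positions came from GENCODE for GRCm38. Python 3.11.15 and matplotlib 3.10.9 made the figures. Scripts were tested on simulated data.

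The 10 genes and all lists were chosen with earlier results of these data known. Genes named are the 10, in each list up to 4 with the smallest adjusted p, and the receptors and Smads of the core chain. Other list and marker genes with values in the text were chosen after their values were seen. A further gene was taken out of the TGF-beta list after the lists were made, is in none of its counts and is not reported here. Alternatives were other scalings and filters, DESeq2 1.42.0, edgeR's exact test, limma 3.58.1 voom, omission of genes on X and Y, and leaving out each library in turn.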

Additional observations from a re-analysis of the deposited data

How the results depend on the processing

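The 6 counts of called genes (all genes, the 10 BMP genes and the pathway lists, in each direction) were recomputed under 15 alternatives, and 89 of 90 values stayed within 1.5 times the reported count. The exception was the number of the 10 genes called lower, which was 2 without WT c, where *Bmpr2* joined *Id1* (range 1 to 2 over omitted libraries). All genes called ran from 1362 to 2139 higher and from 1639 to 2306 lower, the lowest both with DESeq2. *Id1* (-0.48 to -0.38), *Smad6* (0.38 to 0.44) and *Smad7* (0.47 to 0.56) kept their calls under all 15, with adjusted p of at most 8.79e-04, 9.26e-05 and 2.41e-06. *Bmp6* lost its call under 5. Over all 10 genes and 15 alternatives, 9 of 150 log2 fold changes turned in sign, all of them in genes not called. *Bmp4* turned to 0.0117 with voom. With 1 library omitted, *Bmp4* ranged from -0.17 to 0.13 (0.0147 without WT a, 0.126 without WT c, 0.0652 without KO a) and *Bmp2* from -0.31 to 0.17 (0.169 without KO a). *Bmp10* then ranged from -0.04 to 0.08 (-0.0417 without WT b, -0.0426 without KO a) and *Id3* from -0.09 to 0.03 (0.0277 without WT b, 0.00861 without KO a). For these turns the cause was not tested. No paired analysis was possible because column names give a genotype without a number. Depth limits *Bmp2* and *Bmp4* most, whose intervals are the widest of the 10.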

Other observations

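The TGF-beta and activin arm, which shares *Smad4* and *Smad7* with the BMP branch, had 5 of 10 genes lower (3 without KO a or with DESeq2) and 1 higher in KO (quasi-likelihood F test of edgeR, Benjamini-Hochberg adjusted). By the same test 15.7% of all genes were lower and 14.6% higher. The ligands *Tgfb3* (27.6 ± 1.75 against 19.5 ± 1.31 CPM, adjusted p = 8.28e-06) and *Tgfb2* (56.2 ± 2.21 against 45.0 ± 0.975 CPM, adjusted p = 3.73e-05) fell. *Inhba*, a subunit of activin A, fell from 8.17 ± 0.595 to 4.56 ± 0.236 CPM (adjusted p = 1.70e-05), while *Inhbb*, the subunit of activin B, rose from 1.09 ± 0.292 to 2.10 ± 0.271 CPM (adjusted p = 0.00995). *Smad2* (84.4 ± 1.81 against 84.5 ± 1.79 CPM) and *Smad3* (57.2 ± 2.60 against 54.6 ± 2.52 CPM) did not pass the test.

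Of 6 genes often studied with *Bmp10*, 3 were lower, where 15.7% of all genes tested were lower. *Tbx20*, already counted among the target genes above, was among them. *Tcap*, a sarcomere protein of the Z-disc, fell from 44.6 ± 0.622 to 31.4 ± 2.01 CPM (adjusted p = 2.62e-07) and *Myocd*, the coactivator myocardin, fell from 325 ± 3.78 to 306 ± 4.25 CPM (adjusted p = 0.0264), the latter not with DESeq2 (0.0573) or without WT a (0.0745), WT b (0.0664), KO a (0.101) or KO b (0.101). *Nkx2-5*, a cardiac homeobox gene, did not pass (log2 fold change -0.13, SE 0.0515, adjusted p = 0.0597). Among trabecular and compact markers the natriuretic peptide genes moved apart, with *Nppa* at 372 ± 4.91 against 597 ± 8.94 CPM and *Nppb* at 318 ± 7.86 against 183 ± 1.15 CPM. *Irx3*, a homeobox gene of the trabecular and conduction tissue, fell from 30.3 ± 1.72 to 25.3 ± 0.499 CPM (adjusted p = 0.00432), and *Gja5*, a gap junction gene of the trabeculae, measured 47.5 ± 1.41 against 47.7 ± 3.28 CPM (adjusted p = 0.966).

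By distance between centred log2 CPM over the 6 libraries, the genes whose pattern was most like that of *Bmp6* were *Kif1b* (0.0336), *Hist1h3d* (0.0413) and *Gabpb2* (0.0462), and those most like *Id1* were *Alox12* (0.0790), *Pdzd2* (0.0956) and *Itprip* (0.103).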
